A study of Homo sapiens with 4 samples.

Results

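The histone genes encode the proteins around which nuclear DNA is wrapped, together with the linker histones that bind between the wrapped units. They were picked out by a rule on gene symbols, and this set was proposed with earlier results of these data known. The symbols were those of the replication-dependent H1, H2A, H2B, H3 and H4 genes, and those of the variant genes (among them H1-10, H2AZ1, H2AZ2, H2AX, H2AJ, MACROH2A1, MACROH2A2 and the H3-3 type genes). Of the 26603 genes with values, 68 met this rule. Among them, 56 were replication-dependent and 12 were variant genes. RNA was measured by sequencing in 2 libraries labelled drug and 2 labelled control, all from PLC8024, an established tumour cell line labelled as liver cancer. The labels give neither the drug nor its dose or time, and no allele or genotype of the line. Nothing in them says whether replicates were cultured separately. The p-values therefore reflect the variation among the 4 libraries alone, which may be technical.

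Replication-dependent histone genes lie in clusters, are transcribed mainly while DNA is copied, and make messenger RNAs that normally end in a short stem-loop without a poly(A) tail. The stem-loop is bound by SLBP, and cleavage just after it makes the end of the RNA. Most variant histone genes stand alone, are transcribed outside S phase as well and make ordinary polyadenylated messengers, while H2AX can also make one that ends in the stem-loop. The variants exchange with or add to the replication-dependent proteins at promoters, damaged DNA or silent chromatin. The libraries were made by a protocol that selects polyadenylated RNA, so the levels of replication-dependent genes given here are levels of the RNA that passed this selection.

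The stem-loop was searched for in the GENCODE 29 transcripts of the members, as 16 bases holding 6-base arms around a 4-base loop. It was found in the transcripts of 25 members, 24 of them replication-dependent and the other 1 H2AX. Many other replication-dependent members have short GENCODE 29 transcripts, such as 381 bases in H2BC12 and 312 in H4C12, which may stop before it. A missing match therefore does not show that a gene lacks the stem-loop. Outside the members, 33 of 19859 protein-coding genes (0.166%) had a match to the same pattern. These outside genes were not cleared of other histone genes, such as HIST2H3A and HIST2H4A. Some of the 33 may therefore be histone genes. The sequences of the 5 members that carried it and were also abundant enough to be tested are given as DNA, 5′ to 3′, because they are the ends at which a replication-dependent messenger is normally cut. Capitals mark the paired arms and lower case the loop.
H2AC6: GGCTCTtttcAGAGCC
H2BC21: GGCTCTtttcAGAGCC
H2BC5: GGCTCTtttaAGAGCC
H4C5: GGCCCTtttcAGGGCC
H2AX: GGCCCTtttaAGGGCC
The sequence of H2AC6 and H2BC21 was the most frequent, with 12 of the 25 members. That of H4C5 and that of H2BC5 were each found in 4 members, and that of H2AX in 1. In 20 of the 25 members an annotated transcript ran at least 100 bases past the stem-loop, by 1128 bases in H2AC6, 1729 in H2BC21, 1022 in H4C5 and 1044 in H2AX. In H2BC5 it ran 39 bases past it. The values are per gene, so reads before and after the stem-loop cannot be told apart. In some members the part past it may not have been counted at all. The exon length implied by the values was 412 bases in H4C5 and 397 in H4C9, against 1487 and 1294 in GENCODE 29.

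Depth was 40279560 and 38685856 reads in drug libraries 1 and 2, and 28526098 and 38611635 reads in control libraries 1 and 2. FPKM is the number of fragments scaled to the exon length of the gene and the size of the library. The 14 hepatocyte and liver cancer markers summed to 974 and 964 FPKM with drug and 1110.0 and 1122 FPKM in control, with 5 of the 11 tested higher and 4 lower. KRT8, KRT18, TF and FGB were abundant, while APOB and TTR were at or near 0 and ALB was at 1.31 and 1.32 FPKM with drug and 3.15 and 3.23 FPKM in control. Among markers of other cell types, the 6 fibroblast genes summed to 1.14 and 1.12 FPKM with drug and 0.714 and 0.668 FPKM in control. The 4 endothelial genes in the table summed to 2.13 and 2.25 FPKM with drug and 4.73 and 4.20 FPKM in control, nearly all of it PECAM1, with VWF at or near 0. The 3 leukocyte genes summed to 283 and 287 FPKM with drug and 181 and 184 FPKM in control, nearly all of it LYZ, with CD14 near 0. The part of these differences in the histone values was not tested.

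With drug, the variant linker histone gene H1-10 was lower, and 2 replication-dependent genes, the H2A gene H2AC6 and the H2B gene H2BC12, were higher. Only 16 members had a mean of at least 1 FPKM in either group and were tested with limma on log2(FPKM + 1), with p-values adjusted over the 11227 genes tested. At an adjusted p under 0.05, 2 of the 16 were higher, against 7.78% of all genes tested, and 2 were lower, against 6.02%. In either direction this is 25.0% of the tested members and 13.8% of all genes tested, and 12 members did not pass. The median log2 fold change of the 16 was 0.10, and that of all genes tested was 0.04. The drug libraries lay above both controls in 8 of the 16 and below both in 5, against 40.3% and 23.3% of all genes tested. By the same threshold, edgeR on reads recovered from FPKM called 1 member higher (8.37% of genes) and 2 lower (11.0%), and DESeq2 called 2 higher (7.03%) and 2 lower (10.1%). With FPKM rescaled between libraries by TMM factors, limma called 1 higher (4.89%) and 2 lower (6.45%). Among the 68 members, 2 were higher (3.18% of all genes) and 2 lower (4.03%) in the authors' deposited table. None of the 4 limma calls held in every alternative run. In bulk RNA, a change in the number of cells of one kind and a change in RNA per cell cannot be told apart.

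**Figure D1:**
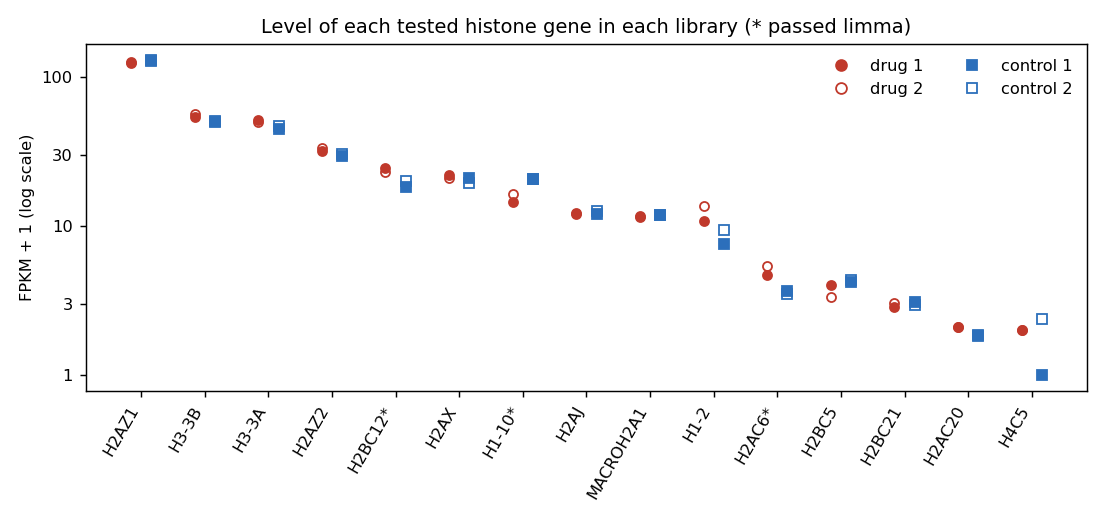
FPKM + 1 (log axis) of the tested histone genes named in the text in each library, circles for drug and squares for control, filled for replicate 1 and open for replicate 2. Levels span from 0 FPKM for H4C5 in control library 1 to 130 FPKM for H2AZ1 in control library 2, and drug and control symbols lie close together for most genes.

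Linker histones bind the DNA between nucleosomes. H1-10 is a divergent linker histone with its own single gene. H1-10 (ENSG00000184897, chr3:129314771-129316277 on hg38, minus strand) had 13.5 and 15.5 FPKM with drug and 19.6 and 19.7 FPKM in control. The drug libraries were below both controls, and differed more from each other than the controls did. The log2 fold change was -0.41 ± 0.07 (SE), with a limma adjusted p of 0.0213, and the ratio of means was 0.739. The adjusted p was 0.00321 with edgeR and is 1.29e-05 in the authors' deposited table. Without control library 1 the limma adjusted p was 0.0964, and without control library 2 it was 0.0969. An antisense gene, H1-10-AS1, overlaps its exons, and the strand setting of the authors' counting is not given in the sources used here, so reads of the 2 genes may be mixed. The 250 bases before the RefSeq start of H1-10 (chr3:129316287-129316536, minus strand, GRCh38.p14) are shown because this gene fell with drug; capitals mark TATAAA.
H1-10: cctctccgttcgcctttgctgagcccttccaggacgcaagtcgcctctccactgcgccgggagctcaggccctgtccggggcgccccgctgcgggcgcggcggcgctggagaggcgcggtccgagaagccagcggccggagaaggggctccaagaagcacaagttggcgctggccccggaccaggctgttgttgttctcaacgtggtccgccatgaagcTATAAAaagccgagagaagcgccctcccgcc
The window held 1 TATAAA and no CCAAT.

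H1-2 is the most abundant replication-dependent linker gene here, and its measured values were on the opposite side from those of H1-10. It had 9.85 and 12.7 FPKM with drug and 6.62 and 8.36 FPKM in control, from 290 and 358 reads with drug and 138 and 236 reads in control. The groups did not overlap, but each spread widely. The log2 fold change of 0.53 ± 0.14 (SE) did not pass, with a limma adjusted p of 0.0749. It passed with DESeq2 on recovered reads (adjusted p = 0.0454) and did not with edgeR (adjusted p = 0.0634).

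The other replication-dependent H1 genes were under the limit for testing. H1-4 had 10 and 27 reads with drug and 1 and 2 reads in control, which is 0.315 and 0.887 FPKM with drug and 0.0445 and 0.0658 FPKM in control. In the authors' deposited table its adjusted p was 0.0682, the lowest among the 52 untested members. H1-5 had 5 and 12 reads with drug and 5 and 10 reads in control, and H1-3 had reads in 1 control library only. The 250 bases before the RefSeq start of H1-2 (chr6:26056471-26056720, minus strand, GRCh38.p14) are shown as an example of the H1 promoters; capitals mark CCAAT and AAACACA, on either strand. AAACACA is known as an element of replication-dependent H1 promoters.
H1-2: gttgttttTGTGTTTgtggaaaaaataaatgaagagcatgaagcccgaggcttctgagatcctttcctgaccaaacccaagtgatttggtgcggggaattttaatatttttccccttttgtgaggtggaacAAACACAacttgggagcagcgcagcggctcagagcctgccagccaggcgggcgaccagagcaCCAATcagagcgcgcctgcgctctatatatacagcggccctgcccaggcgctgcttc
AAACACA on either strand was found in 4 of the 61 members with a RefSeq window (6.56%), against 4.82% of all 35116 windows. The 4 members were H1-2, H1-3, H1-4 and H1-5.

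**Figure D2:**
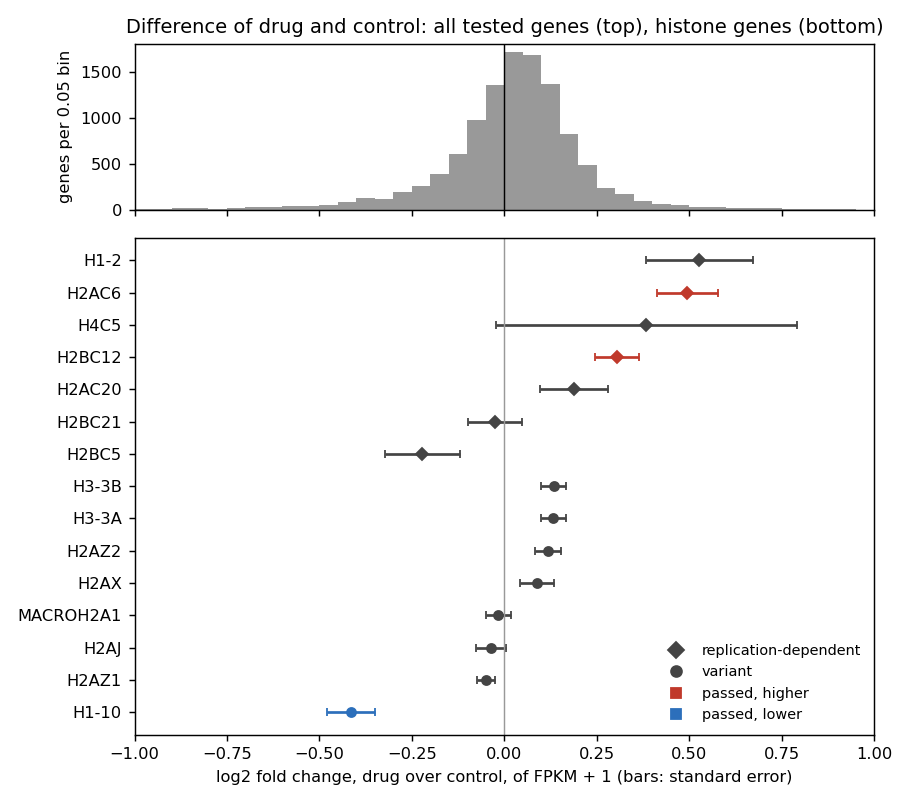
Log2 fold change of FPKM + 1, drug over control, for all tested genes as a histogram (top) and for the tested histone genes named in the text (bottom), with bars for the standard error, diamonds for replication-dependent and circles for variant genes. H2AC6 and H2BC12 (red) passed as higher and H1-10 (blue) as lower, while H1-2 did not pass.

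Among the H2A genes, H2AC6, a replication-dependent H2A gene of the chromosome 6 cluster whose annotated transcripts run past its stem-loop, was higher with drug. H2AC6 (ENSG00000180573, chr6:26124145-26139116) had 3.74 and 4.43 FPKM with drug and 2.67 and 2.53 FPKM in control, from 251 and 286 reads with drug and 127 and 163 reads in control. Both drug libraries lay above both controls. The log2 fold change was 0.49 ± 0.08 (SE), with a limma adjusted p of 0.0243, and the ratio of means was 1.57. It passed also with edgeR (adjusted p = 0.0268), with DESeq2 (0.0232), and in the authors' deposited table (0.0328). The call was lost without drug library 2 (limma adjusted p = 0.0755), without control library 1 (0.0941) and without control library 2 (0.106). H2AC20, the other replication-dependent H2A gene tested, had 1.11 and 1.10 FPKM with drug and 0.852 and 0.839 FPKM in control and did not pass (limma adjusted p = 0.222). It rested on 12 to 22 reads a library.

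The variant H2A genes showed small differences, and none passed. H2AZ1 and H2AZ2 encode the near-identical H2A.Z proteins of promoters and enhancers. H2AZ1 was the most abundant histone gene, with 123 and 125 FPKM with drug and 128 and 130 FPKM in control (log2 fold change -0.05 ± 0.03 SE, limma adjusted p = 0.241). H2AZ2 had 30.7 and 32.2 FPKM with drug and 28.6 and 29.3 FPKM in control (0.12 ± 0.04 SE, limma adjusted p = 0.0887). The drug libraries of both genes lay outside the range of the controls, on opposite sides. H2AZ1 held 80.0% and 79.5% of the FPKM of the pair with drug and 81.7% and 81.6% in control.

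H2AX encodes the variant that is phosphorylated around DNA breaks. It had 21.0 and 20.1 FPKM with drug and 20.0 and 18.6 FPKM in control (limma adjusted p = 0.253), non-overlapping by a small margin. H2AJ, an H2A variant, overlapped between groups with 11.3 and 11.0 FPKM with drug and 11.2 and 11.7 FPKM in control (limma adjusted p = 0.569). MACROH2A1, which encodes a large H2A variant of silent chromatin, had 10.6 and 10.8 FPKM with drug and 10.8 FPKM in both controls (limma adjusted p = 0.764). Its relative MACROH2A2 was far lower, at 0.0828 and 0.0638 FPKM with drug and 0.0398 and 0.0484 FPKM in control, and was not tested.

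H2B is represented by replication-dependent genes only. H2BC12 (ENSG00000197903, chr6:27146418-27146798, minus strand) was the most abundant replication-dependent histone gene, with 23.7 and 22.0 FPKM with drug and 17.4 and 19.2 FPKM in control. The drug libraries lay above both controls. The log2 fold change was 0.31 ± 0.06 (SE), with a limma adjusted p of 0.0348, and the ratio of means was 1.25. It passed in 1 of the 10 alternatives run, the smaller pseudocount. The call was lost with each library left out in turn (limma adjusted p from 0.0606 to 0.117), with edgeR (adjusted p = 0.134) and with DESeq2 (0.240) on recovered reads, and in the authors' deposited table (0.369). It was also lost with TMM-rescaled FPKM (limma adjusted p = 0.0638). Of the 50-base windows of its transcript, 74.1% occur also in another annotated gene, mostly in H2BFS, a near-identical copy not analysed here, so its reads may be split or merged between the copies.

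H2BC5 had 3.03 and 2.34 FPKM with drug and 3.22 and 3.34 FPKM in control (log2 fold change -0.22 ± 0.10 SE, limma adjusted p = 0.199). H2BC21 overlapped between groups, with 1.88 and 2.05 FPKM with drug and 2.08 and 1.94 FPKM in control (limma adjusted p = 0.836). The 3 tested H2B genes thus had log2 fold changes of both signs, and 1 of them passed.

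The promoter windows of H2AC6 and H2BC12, the genes called as higher, are shown with CCAAT and TATAAA, on either strand, in capitals. CCAAT is bound by NF-Y and TATAAA is the TATA box, both known elements of replication-dependent histone promoters. The windows are the 250 bases before the RefSeq start, at chr6:26123922-26124171 (plus strand) for H2AC6 and chr6:27146859-27147108 (minus strand) for H2BC12, both on GRCh38.p14.
H2AC6: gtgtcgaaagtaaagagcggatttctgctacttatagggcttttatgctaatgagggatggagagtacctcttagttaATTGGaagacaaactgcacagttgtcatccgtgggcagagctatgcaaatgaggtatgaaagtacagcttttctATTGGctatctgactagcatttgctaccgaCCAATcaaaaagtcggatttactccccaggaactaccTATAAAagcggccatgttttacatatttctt
H2BC12: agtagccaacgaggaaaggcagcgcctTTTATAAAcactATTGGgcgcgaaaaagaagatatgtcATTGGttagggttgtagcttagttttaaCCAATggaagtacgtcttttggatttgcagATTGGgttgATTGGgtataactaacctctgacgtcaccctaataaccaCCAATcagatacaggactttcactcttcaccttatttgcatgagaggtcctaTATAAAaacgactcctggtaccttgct
H2AC6 held 3 CCAAT and 1 TATAAA, and H2BC12 held 6 CCAAT and 3 TATAAA, of which a pair on opposite strands overlap. CCAAT on either strand was found in 51 of the 61 members with a window (83.6%), against 32.0% of all 35116 RefSeq windows. TATAAA was found in 40 of the 61 (65.6%), against 10.7%. All 14 replication-dependent H2A, all 16 H2B, all 9 H3 and all 4 H1 windows held CCAAT, while 1 of 8 H4 windows did. The 61 windows are not all separate, since those of 8 head-to-head pairs share 193 to 247 bases. Matches in the shared bases are counted for both genes of a pair. A match is a description of the letters only.

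H2A and H2B genes often stand head to head. Among members with a RefSeq window, 8 such pairs had overlapping windows, with 194 to 248 bases between the starts. H2AC12 lies next to H2BC12 on the opposite strand but has no window, so that pair is not among the 8. H2AC12, not tested, averaged 0.422 FPKM over the 4 libraries, and H2BC12 averaged 20.6 FPKM. Within the 8 pairs the levels differed by 1.07-fold to 32.3-fold, with a median of 1.82-fold. Both genes were tested in 1 pair, and only 1 gene in 1 other pair. The remaining ratios come from untested genes, with as few as 7 reads over the 4 libraries in H2AC17, and are imprecise. The widest gap among the 8 was that of H2AC6 and H2BC4, whose starts lie 246 bases apart. Of the 250 bases printed for H2AC6, 245 are therefore also in the window of H2BC4. H2AC6 averaged 3.34 FPKM over the 4 libraries and H2BC4 0.104 FPKM, with 21 and 13 reads with drug and 0 and 13 reads in control. H2BC4 was not tested. The only pair with both genes tested was H2AC20 with H2BC21, and neither passed.

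The H3 genes were led by the variant genes H3-3A and H3-3B, which both encode H3.3, the H3 variant deposited outside replication. H3-3A had 50.3 and 49.1 FPKM with drug and 44.2 and 46.3 FPKM in control (log2 fold change 0.13 ± 0.03 SE, limma adjusted p = 0.0655). H3-3B had 53.1 and 55.5 FPKM with drug and 48.7 and 50.1 FPKM in control (log2 fold change 0.13 ± 0.03 SE, limma adjusted p = 0.0628). In both genes the drug libraries lay above both controls, with a ratio of means of 1.10, and neither passed. In the authors' deposited table H3-3B passed, with an adjusted p of 0.0291, while H3-3A did not (0.152). H3-3A held 48.6% and 46.9% of the FPKM of the pair with drug and 47.6% and 48.0% in control.

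Of the 50-base windows of H3-3A, 11.7% occur in another gene, most often in its pseudogene H3P6. H3P6, which is no member, was listed at 83.0 and 87.9 FPKM with drug and 75.2 and 83.4 FPKM in control (limma adjusted p = 0.260). The variant genes H3-5 and H3-7 were not tested, with at most 11 reads a library in H3-5 and at most 4 in H3-7. None of the 11 replication-dependent H3 genes reached the limit. The most abundant, H3C2, had 0.729 and 1.26 FPKM with drug and 0.137 and 0.760 FPKM in control, from 15 and 25 reads with drug and 2 and 15 reads in control.

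All H4 genes are replication-dependent, and all were near or under 1 FPKM. H4C5 was the only 1 tested, with 17 and 16 reads with drug and 0 and 22 reads in control, or 1.02 and 1.00 FPKM with drug and 0 and 1.38 FPKM in control. The drug values lay between the 2 controls, and the limma adjusted p was 0.555. Without control library 2 its limma adjusted p was 0.0466, when the remaining control was listed at 0. H4C3, not tested, had 0.613 and 0.830 FPKM with drug and 0.433 and 1.15 FPKM in control. H4C9, not tested, had 0.938 and 0.846 FPKM with drug and 0.442 and 0.783 FPKM in control.

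**Figure D3:**
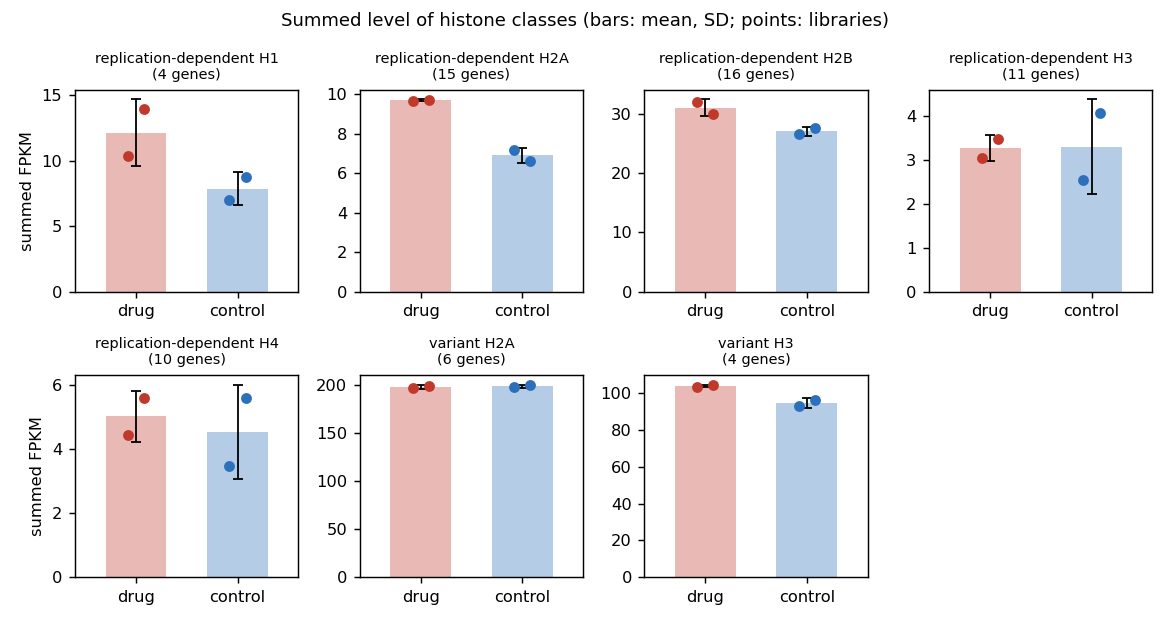
Summed FPKM of histone classes, drug on the left and control on the right, with bars for the mean, error bars for the SD over 2 libraries and points for the libraries. The variant H2A and H3 classes sum to 93 FPKM or more in every library and the replication-dependent classes to 32.1 FPKM or less.

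Summed over each class, no total was tested, and the sums are given as a description. Variant genes held 87.0% and 86.7% of all histone FPKM in drug libraries and 89.8% and 88.9% in control libraries. The 4 variant H3 genes summed to 104 and 105 FPKM with drug and 93.0 and 96.6 FPKM in control, a ratio of means of 1.10.

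The 6 variant H2A genes summed to 197 and 199.6 FPKM with drug and 198 and 200.4 FPKM in control, a ratio of 0.995, so this class differed by less than its spread between libraries. The 4 replication-dependent H1 genes summed to 10.3 and 13.9 FPKM with drug and 6.97 and 8.75 FPKM in control, a ratio of 1.54. The 15 H2A genes summed to 9.66 and 9.74 FPKM with drug and 7.16 and 6.64 FPKM in control, a ratio of 1.40.

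The 16 H2B genes summed to 32.1 and 30.1 FPKM with drug and 26.6 and 27.6 FPKM in control, a ratio of 1.15. This direction rested on H2BC12, since the other 15 H2B genes gave a ratio of 0.937. The replication-dependent H3 genes summed to 3.04 and 3.46 FPKM with drug and 2.53 and 4.06 FPKM in control. The H4 genes summed to 4.46 and 5.59 FPKM with drug and 3.49 and 5.59 FPKM in control. In these last classes the controls spread as widely as, or more widely than, the groups differed. As a share of all reads the members overlapped between groups, at 0.152% and 0.156% with drug and 0.150% and 0.154% in control.

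Most replication-dependent genes were close to the lower limit of these libraries. Of the 52 untested members, 49 were replication-dependent, 27 had under 10 reads in every library, and 7 had no read in either drug library. Genes without a read in either control were not analysed here. The reverse case, a member silent in both controls, could therefore not occur, and the 7 are no sign of a loss with drug. None of the 52 had more than 91 reads in any library, and none had an adjusted p under 0.05 in the authors' deposited table. Together the 49 had 525 and 497 reads with drug and 295 and 455 reads in control. Scaled to library size (RPM) these are 13.0 and 12.8 RPM with drug and 10.3 and 11.8 RPM in control. The means were 12.9 ± 0.132 RPM with drug and 11.1 ± 1.02 RPM in control (SD, n = 2 each), and control library 1, the shallowest, was the lowest.

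**Figure D4:**
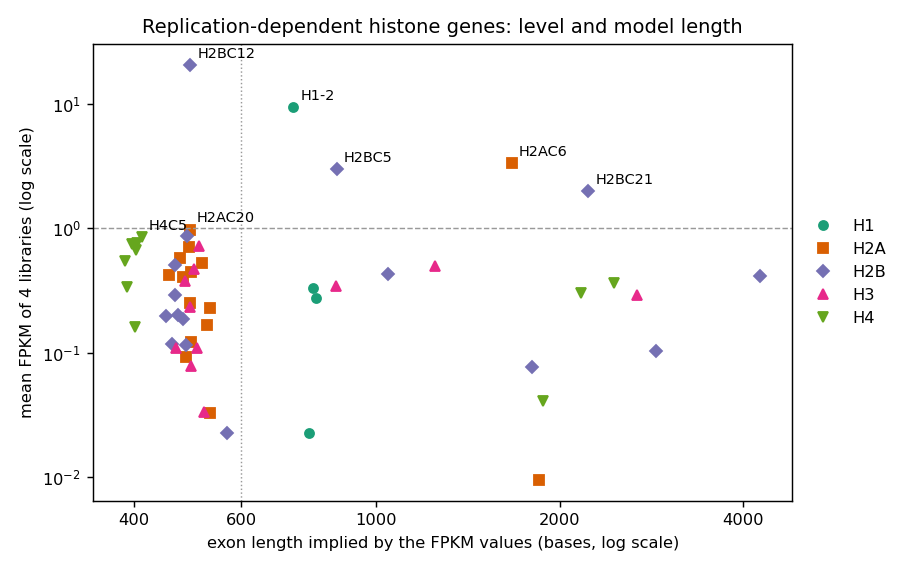
Mean FPKM over 4 libraries (log axis) of each replication-dependent histone gene against the exon length implied by its FPKM and reads (bases, log axis), by class. The dashed line marks 1 FPKM and the dotted line marks 600 bases. Of the 38 genes left of the dotted line 3 were tested, and of the 18 right of it 4. The limit of the test was 1 FPKM in the larger group mean, so H2AC20 and H4C5 were tested although they lie below the dashed line.

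Exon lengths implied by reads and FPKM split the replication-dependent genes in a pair of sets. In 38 genes the implied length was 387 to 569 bases, close to a coding region with its stem-loop, and in 18 it was 731 to 4265 bases. The long set includes the 4 H1 genes, at 731 to 797 bases. Their GENCODE 29 transcripts are 642 to 754 bases long, so the long set does not consist of extended transcripts alone. The median level was 0.313 FPKM in the short set and 0.335 FPKM in the long set. Median reads over the 4 libraries were 18.5 and 80.0, and the long set held 61.1% of all reads of replication-dependent genes. The H1 gene H1-2 alone brought 1022 reads to the long set. Of the genes tested, H2AC20, H2BC12 and H4C5 belong to the short set and H1-2, H2AC6, H2BC21 and H2BC5 to the long set. H1-2, H2AC20 and H2BC12 have no stem-loop within their GENCODE 29 transcripts. Those transcripts are shorter than the lengths implied for the 3 genes, so they may stop before it. Implied and GENCODE 29 exon lengths were within 1% of each other in 6 of the 64 members with both. H4C5 is in the short set although its GENCODE 29 transcript runs past the stem-loop, so the gene models behind the values differ from the printed annotation.

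Of the 52 replication-dependent members found in GENCODE 29, 43 lie on chromosome 6 (chr6:25726777-27893843), 8 on chromosome 1 and 1 on chromosome 12. Near-identical copies limit single-gene values here. In 9 members over 50% of the 50-base windows occur in another gene, among them H4C12, H3C14, H4C15, H2AC17, H2AC14, H4C11 and H3C13 with 80.4% to 100%. In 26 of the 64 members with transcripts no window was shared, including H1-10 and H1-2. In 13 members an exon overlaps a gene on the opposite strand, among them H1-10, H2AZ1, H3-3A, H3-3B and MACROH2A1.

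Genes that supply histones were described by 3 lists, chosen like the members with earlier results of these data known. Over all genes tested, 7.78% were higher, 6.02% were lower and the median log2 fold change was 0.04. Of the 18 tested genes of histone messenger processing, 1 was higher and 0 were lower with drug, with a median log2 fold change of 0.05. The higher gene was UPF1, a helicase needed for the decay of histone messengers, with 15.3 and 16.1 FPKM with drug and 13.7 and 13.2 FPKM in control (limma adjusted p = 0.0345). Its call was lost with any library left out (limma adjusted p from 0.0738 to 0.136). SLBP, the stem-loop binding protein, had 72.0 and 69.0 FPKM with drug and 65.4 and 66.2 FPKM in control and did not pass (limma adjusted p = 0.0975). NPAT, the activator of histone gene transcription, had 4.65 and 4.43 FPKM with drug and 4.02 and 4.18 FPKM in control and did not pass (0.170).

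Of the 31 tested chaperone and deposition genes, 2 were higher and 1 was lower, with a median of 0.06. CENPA, the centromeric H3 variant outside the symbol rule, had 13.8 and 14.0 FPKM with drug and 10.9 and 11.5 FPKM in control (log2 fold change 0.29 ± 0.04 SE, limma adjusted p = 0.0156). HJURP, its chaperone, had 12.1 and 13.3 FPKM with drug and 9.93 and 10.6 FPKM in control (limma adjusted p = 0.0391). ASF1A, an H3-H4 chaperone, had 23.5 and 23.4 FPKM with drug and 27.5 and 27.3 FPKM in control (limma adjusted p = 0.0130). Each of these 3 calls was lost with any library left out, at limma adjusted p-values from 0.0514 for CENPA to 0.150 for HJURP. ASF1B and IPO4 were not analysed here.

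Of the 31 tested S phase genes, 4 were higher and 1 was lower, with a median of 0.09. E2F8, a repressor among the E2F factors, had 8.19 and 8.35 FPKM with drug and 5.61 and 5.89 FPKM in control (limma adjusted p = 0.00648). RRM2, a subunit of ribonucleotide reductase, had 27.8 and 28.98 FPKM with drug and 22.2 and 21.8 FPKM in control (limma adjusted p = 0.00656). Both calls held with each library left out. CCNE1, a cyclin of the entry to S phase, had 11.8 and 11.4 FPKM with drug and 9.34 and 9.12 FPKM in control (limma adjusted p = 0.0132). TYMS, thymidylate synthase, had 14.9 and 15.5 FPKM with drug and 13.2 and 13.3 FPKM in control (0.0314), and edgeR on recovered reads gave an adjusted p of 0.0680. With 1 library left out, the CCNE1 call held only without drug library 2 (limma adjusted p = 0.0488), and the TYMS call was lost with any library left out (0.0802 to 0.134).

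The lower gene was MCM3, a subunit of the replicative helicase, with 118 FPKM in both drug libraries and 141 and 138 FPKM in control (limma adjusted p = 0.00787). Its call was lost without control library 1 (0.0529). PCNA (limma adjusted p = 0.0599), CCNA2 (0.116) and CCNE2 (0.589) did not pass.

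**Figure D5:**
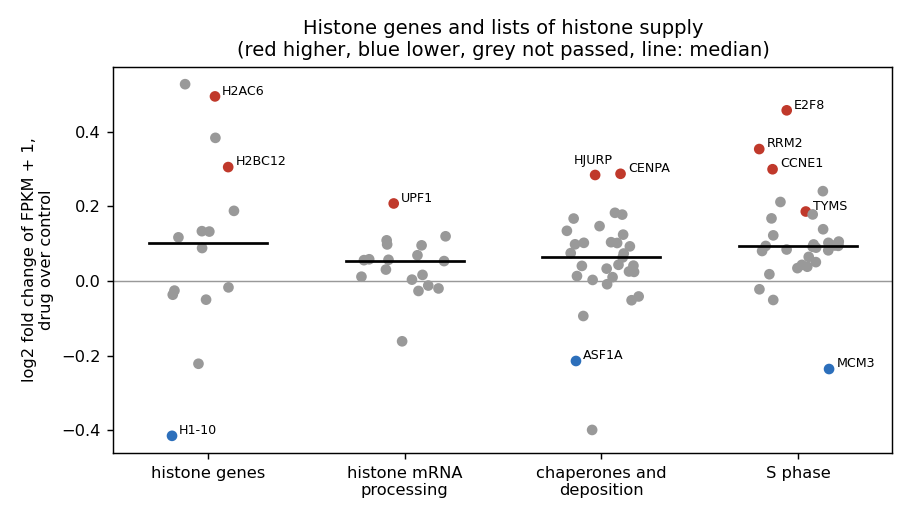
Log2 fold change of FPKM + 1, drug over control, of the named tested histone genes and each tested gene of the 3 supply lists, red for higher, blue for lower and grey for not passed, with a line at the median over all tested genes of each set. Medians run from 0.05 to 0.10 and most points are grey.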

How the data were processed

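RNA was extracted with trizol and libraries were made by the Illumina TruSeq stranded mRNA procedure, per the labels' protocols. Per the submitters' processing notes, bcl2fastq was used and coordinates are on hg38. How reads were aligned, assigned to genes and tested is not given in the sources used here. Library columns hold FPKM values that the authors deposited, identified from the values. The 2 group columns are the authors' mean normalized read signal, and the log2 fold changes, p-values and adjusted p-values in the table are the authors' own, per the file headers. Genes at 0 in both controls were not analysed here.

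Whole reads per library were recovered from the deposited FPKM and group means, and 100% came out whole to a tolerance of 0.1 read. The test was limma 3.58.1 with a trended prior on log2(FPKM + 1). It covered the 11227 genes whose mean reached 1 FPKM in either group, with Benjamini-Hochberg adjusted p-values called under 0.05. The pseudocount understates the change of low genes. The design allowed for a count table or FPKM, and the FPKM form was used. Alternatives were a pseudocount of 0.1, no filter, TMM-rescaled FPKM, edgeR 4.0.16 and DESeq2 1.42.0 on recovered reads, the replicate number as a block, and leaving out 1 library at a time. Fits were checked on simulated data with known changes. Of the 142 genes that limma called there, 19 had not been changed, against 3 of 142 with edgeR and 4 of 137 with DESeq2. In that simulation limma recovered 0% of 1.2-fold, 57.1% of 1.5-fold and 90% of 2-fold changes. Every gene was simulated with the same dispersion, unlike real genes, so these rates need not hold for these libraries. A call by limma alone is treated here as less secure than one shared with edgeR or DESeq2.

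Replicates correlated at 0.992 (drug) and 0.993 (control) across genes, and 0.986 to 0.987 between groups; genes are not independent. Exon lengths, 50-base windows and stem-loops came from GENCODE 29 (64 of 68 members found), and promoter windows from RefSeq GRCh38.p14 (61 members). Named were the members that passed, the 3 most abundant of each class, the variants, up to 4 genes of each list that passed, and SLBP, NPAT, CENPA, PCNA, CCNE1, CCNE2 and CCNA2. H1-4, H1-3, H1-5, H2AC20, H2BC4, H3P6, MACROH2A2 and the copies with shared windows are also named, and those outside this rule were chosen after their values were seen. One member is counted in the totals but not otherwise reported here. Members and lists were chosen with earlier results of these data known. Software was Python 3.11.15 (numpy 2.4.6, pandas 2.3.3), matplotlib 3.10.9 and R 4.3.3.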

Additional observations from a re-analysis of the deposited data

How the results depend on the processing

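Of the tested histone genes, H2AC20 is left out of this comparison of signs, and the others except H2BC21 and H4C5 kept the sign of their log2 fold change in all alternatives run. Those 2 changed sign between settings and did not pass at the main settings. Of the 2 histone genes higher and 2 lower, none passed without the filter on low values, where 170 genes were higher and 214 lower over the whole table, against 873 and 676 with it. TMM-rescaled FPKM gave 549 higher and 724 lower genes, and 1 histone gene higher. EdgeR gave 940 higher and 1233 lower, with 1 histone gene higher, and DESeq2 gave 774 and 1109. With each library left out, 115 to 221 genes were higher and 188 to 274 lower, and 0 to 1 histone genes were higher and 0 to 2 lower. The same-numbered libraries deviated together with a correlation of 0.028 across genes, so the numbers do not pair them. With a replicate block, 474 genes were higher and 451 lower, with 1 histone gene higher: H1-2 passed (limma adjusted p = 0.0164) and H2AC6 (0.0527) and H2BC12 (0.0751) did not. Over the 3 supply lists, 7 genes were higher and 2 lower. Without the filter 2 were higher, edgeR and DESeq2 each gave 5 lower, and leave-one-out gave 2 to 3 higher and 0 to 2 lower. The ratio of the variant H2A sum was 0.975 with TMM. Without the most abundant gene of the class, ratios were 2.34 for replication-dependent H1, 1.30 for H2A, 0.937 for H2B, 0.793 for H3 and 1.05 for variant H2A. The H1 and H3 ratios rest on untested genes only. In H1 these were H1-4 (10 and 27 reads with drug, 1 and 2 in control), H1-5 (5 and 12 with drug, 5 and 10 in control) and H1-3, with reads in 1 control library only. The causes were not tested. With 2 libraries a group and 2 residual degrees of freedom, a gene that did not pass is not shown to be equal between groups.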
